A study of Mus musculus with 14 samples.

Results

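Secreted proteins of the acute phase and of mucosal defence were described here through 10 of the 45777 genes in the deposited gene tables. The set comprised the serum amyloid A genes Saa1, Saa2 and Saa3, the iron-withholding proteins Lcn2 and Ltf, the bacteria-binding proteins Reg3g, Bpifb1 and Pglyrp1, the chitinase-like protein Chil1, and Pigr, the receptor that carries immunoglobulins into saliva. The genes were chosen by their read counts in these same 14 libraries, with the differences between glands, between media and between organoids and tissue in view. Their values are therefore a description, no p-value is attached to any of them, and counts of these genes are given beside the share of all genes that passed the same criteria.

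The RNA came from 7 groups of 2 libraries each, made from the parotid gland (PG), the sublingual gland (SLG) and the submandibular gland (SMG) of wild-type C57BL/6 mice. Organoids are self-organizing epithelial structures grown from gland cells inside Matrigel, a basement membrane gel. PG, SLG and SMG organoids were cultured in differentiation accelerating medium (DAM), and SMG organoids were also kept in growth and expansion medium (GEM). GEM contained the ROCK inhibitor Y-27632 at 10 µM, whereas DAM left that compound out and contained DAPT, a blocker of Notch signaling, at 5 µM. The figure legends of the study give 9 days in GEM followed by 3 days in DAM. The methods of the study place the removal of Y-27632 at 7 days after seeding and the addition of DAPT 3 days later. The other 3 groups were untreated PG, SLG and SMG tissue. The methods give female mice of 6 to 8 weeks, and the tissue columns carry an age of 6 weeks. No label states whether the 2 libraries of a group came from separate animals or cultures. A figure legend of the study calls the sequenced PG, SLG and SMG organoids in DAM biologically independent samples, with n = 2. It does not say whether these were animals or cultures. The errors below rest on the spread between the 2 libraries of a group, pooled over all groups of a fit. An SE is therefore not specific to the groups it compares. In SMG organoids in GEM and in tissue, the spread between the 2 libraries may be technical.

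Serum amyloid A proteins, lipocalin 2 and related factors make up part of the acute-phase response, in which inflammatory cytokines acting through NF-kB, STAT3 and C/EBP transcription factors switch on their genes in liver and in epithelia. Salivary glands add lactoferrin, peptidoglycan recognition proteins and BPI-fold proteins to saliva, where they bind iron or bacterial surface molecules. The polymeric immunoglobulin receptor takes up dimeric IgA made by plasma cells beneath the epithelium, carries it across the duct or acinar cell and releases it with a fragment of the receptor attached.

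Total read counts ran between 56383651 and 69139767 in the organoid libraries, and between 57397998 and 71367044 in the tissue libraries. The 10 genes with most counts took 7.37% to 9.07% of an organoid library and 47.0% to 80.2% of a tissue library. Levels are therefore given as counts-per-million values (CPM) of an effective library size, which was the sum over genes with a count above 0 in all 14 libraries multiplied by a TMM factor. Against scaling by whole-library totals, this moved the median of all genes by less than 0.12 on the log2 scale between organoid groups and between PG and SMG tissue. The shift was 2.0, 1.11 and 2.06 for PG, SLG and SMG organoids against their tissue, -0.87 for PG against SLG tissue and 0.98 for SLG against SMG tissue. Under whole-library totals, the percentage of called genes that were higher was 93.7, 89.3 and 92.1 for the 3 organoid against tissue comparisons, in place of 53.2, 53.3 and 49.6. It was 11.2 in place of 55.5 for PG against SLG tissue, 94.9 in place of 41.3 for SLG against SMG tissue, and 60.2 in place of 49.8 for PG against SMG tissue. Organoids and tissues were deposited in separate tables, so culture and any difference in preparation cannot be told apart. In bulk RNA, fewer cells of a type and less RNA per cell cannot be told apart either.

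SLG tissue library 1 stood apart from SLG tissue library 2. It held 204243 counts of Chia1 and 2469763 counts of Bpifa2, which are abundant secretory products of the parotid gland, against 146 and 614284 counts in library 2. In CPM, library 1 held 5.45% of the mean PG tissue level of Chia1 and 5.73% of that of Bpifa2. Bpifb1 was the member with a like split. Without library 1, SLG organoids against SLG tissue gave log2 fold changes of 8.38 for Lcn2, -3.49 for Pglyrp1, 8.88 for Chil1 and -0.38 for Pigr, and Ltf was 268-fold higher in SLG organoids than in library 2. Reg3g and Saa3 had no count in library 2, and SLG organoids were at least 695-fold and at least 13.6-fold above its floor.

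Marker genes were checked against the labels. Acinar markers summed to between 505 and 1265 CPM in organoids and between 38470 and 387800 CPM in tissue, whereas basal duct markers summed to 4329 to 9203 CPM in organoids and 103 to 170 CPM in tissue. The acinar list held Bhlha15, Aqp5, Chrm3, Slc12a2, Smgc, Amy1, Prol1, Klk1 and Egf. The study uses KLK1 as a duct marker in human glands, so this list may not reflect acinar cells alone. Ptprc, the pan-leukocyte gene, had 0 counts in all 8 organoid libraries and 166 to 325 counts in the 6 tissue libraries. The summed level of the 11 macrophage and leukocyte markers was 42.4 and 36.1 CPM in SLG organoids, against 5.47 to 9.48 CPM in the other organoids and 124 to 294 CPM in tissue. In SLG organoids the lysozyme gene Lyz2, with 3308 and 2495 counts, made up nearly all of it, and 7 of the 11 markers were at 0 in each library. Several of the 10 genes are also made by neutrophils. The summed level of 12 neutrophil markers was 60.0 and 65.6 CPM in PG organoids, 0.380 and 0.126 CPM in SLG organoids, 5.91 and 4.94 CPM in SMG organoids in DAM, 4.72 and 4.10 CPM in SMG organoids in GEM, and 0.246 to 2.63 CPM in tissue. In PG organoids S100a8 (1977 and 2092 counts) and S100a9 (2198 and 2277 counts) made up nearly all of it. The granule enzyme genes Mpo and Elane were at 0 in all 14 libraries, including the 6 tissue libraries with Ptprc counts, so nothing is read from them. Of the 12 markers, 5 had no count in any organoid library. The part of neutrophils in the values below was not tested beyond these levels.

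Per unit of transcript length, the leading member was Lcn2 in PG and SMG organoids and Ltf in SLG organoids. The deposited transcripts-per-million values (TPM), which the authors scaled by length, could be assigned in 12 libraries. Lcn2 reached 13770 TPM in PG organoid library 1, which ranked 2 among the 45777 genes. In SLG organoids it had 3540 and 3287 TPM, in SMG organoids in DAM 5183 and 5265 TPM, and in SMG organoids in GEM 8768 TPM in the 1 library assigned. SLG organoids were the organoid group in which Ltf exceeded Lcn2, at 4290 and 3807 TPM. Chil1 had 4616 TPM in PG organoid library 1, a rank of 17, against 252 and 227 TPM in SLG organoids. In that PG library Chil1 stood above Ltf, which had 3298 TPM. In tissue the leading member was another gene in each case. Pglyrp1 led in SLG tissue, with 811 and 1109 TPM (ranks 43 and 31), and Pigr led in PG tissue, with 37.3 and 35.6 TPM, and in SMG tissue, with 11.5 and 12 TPM.

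All 10 genes together took 1.80% and 1.65% of the counts of PG organoids, 1.01% and 0.924% of SLG organoids, 0.791% and 0.752% of SMG organoids in DAM, and 1.19% and 1.21% of SMG organoids in GEM. In tissue their share was 0.0157% and 0.0150% in PG, 0.143% and 0.172% in SLG, and 0.00605% and 0.00639% in SMG. The share in tissue is read against totals dominated by a few secretory transcripts, as described above.

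**Figure D1:**
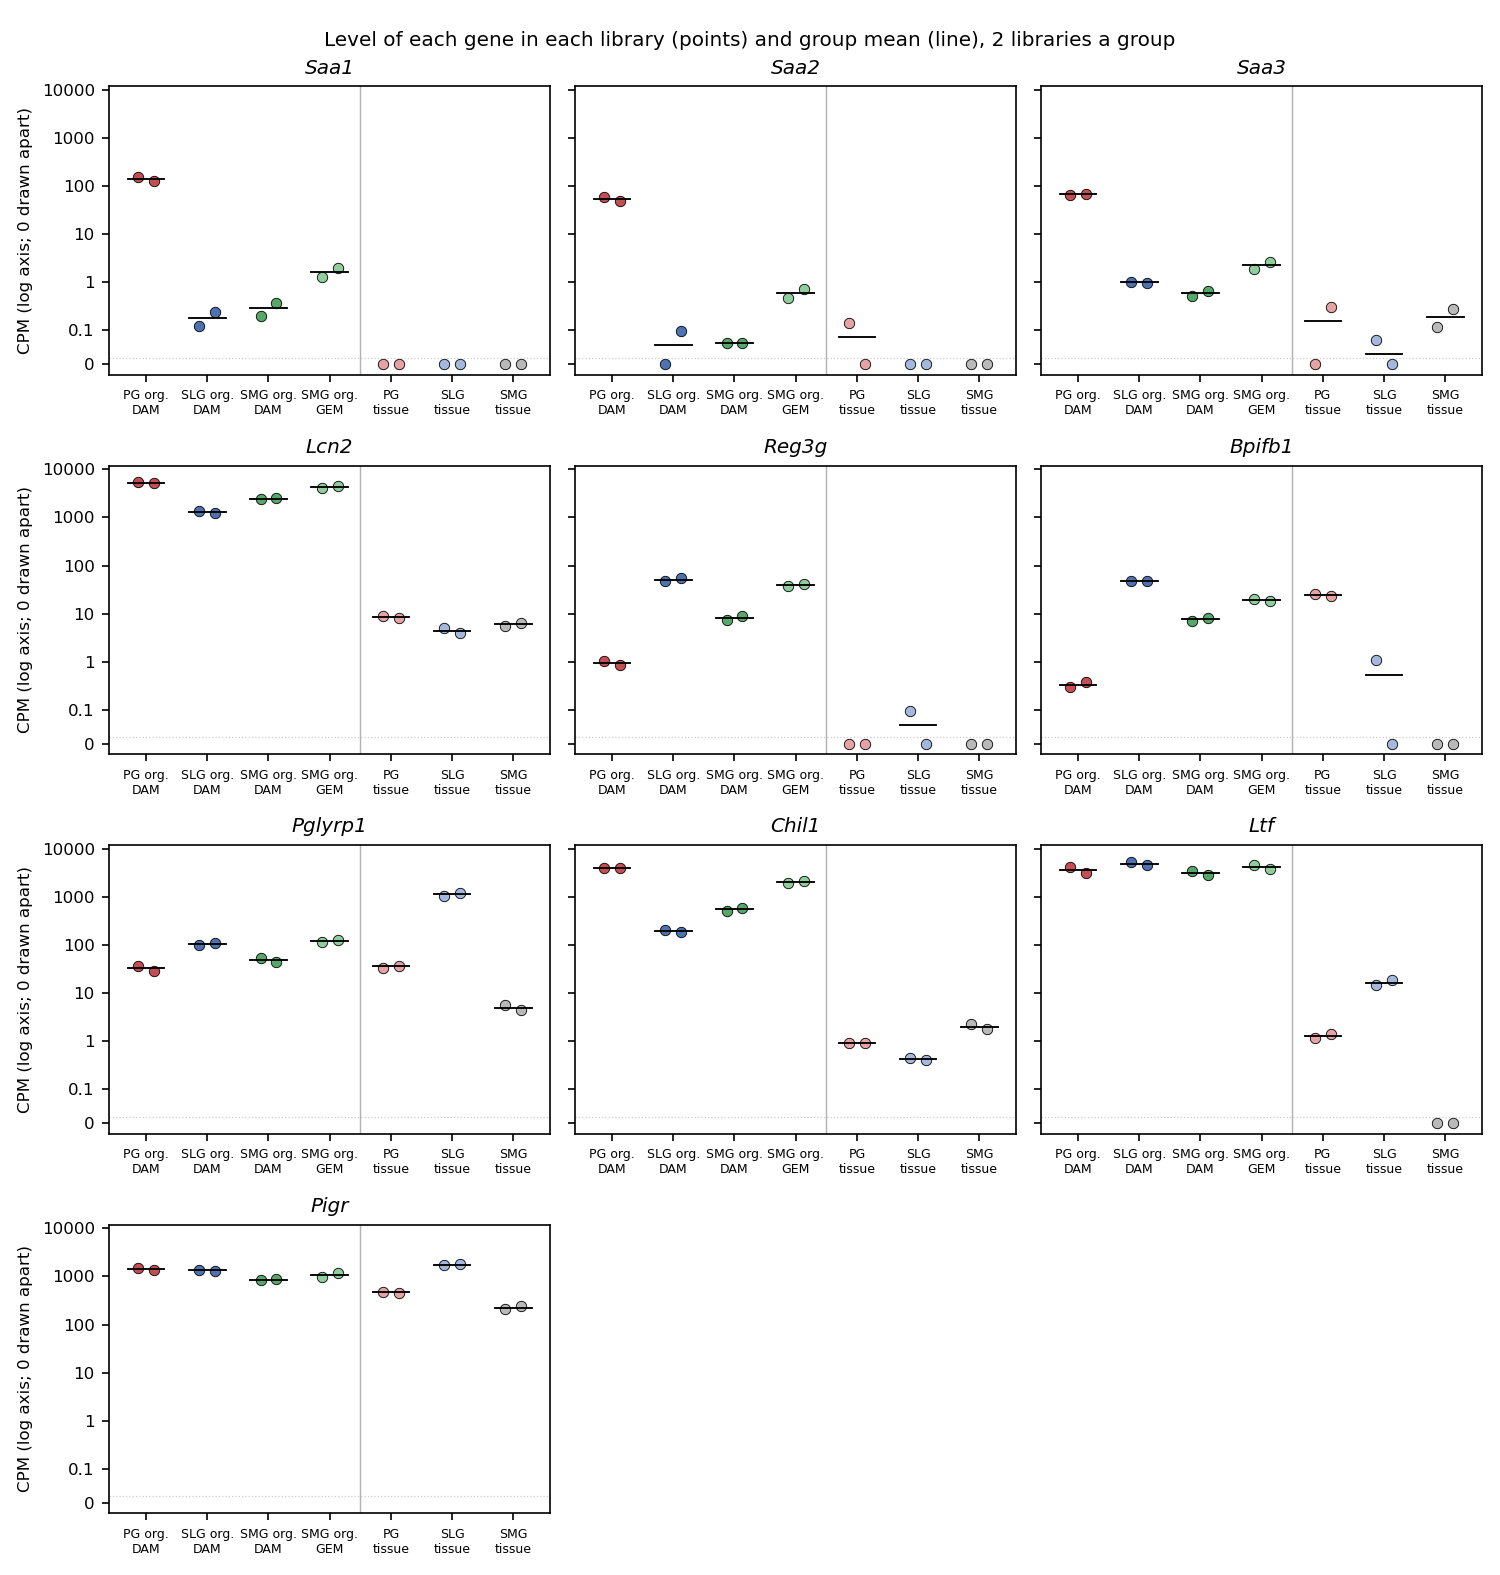
CPM of each of the 10 genes (log axis, with libraries at 0 drawn on a separate line at the bottom) in the 14 libraries, grouped by gland, medium and tissue. Points are libraries and lines are means of 2 libraries. Saa1, Saa2 and Saa3 reach 49.0 CPM or more only in PG organoids, Reg3g and Bpifb1 are highest in SLG organoids, and Pglyrp1 reaches 1063 CPM or more only in SLG tissue.

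Saa1, Saa2 and Saa3 encode apolipoproteins of the acute phase, which ride on high-density lipoprotein and bind retinol and bacterial membranes. The 3 genes lie in 1 cluster on mouse chromosome 7. In the GRCm38.p6 RefSeq annotation, Saa1 spans chr7:46740497-46743181 on the minus strand and Saa2 spans chr7:46751833-46754313 on the plus strand, 8651 bases away. Saa3 spans chr7:46711998-46719615 on the minus strand, 20881 bases from Saa1, with Saa4 and a pseudogene between them. Saa4 had no count in any library. No annotated gene overlaps any of the 10 genes. Saa1 and Saa2 are near copies: their promoters were 95.3% identical and their transcripts 93.9% identical, against 51.3% and 64.6% for Saa1 and Saa3. No stretch of 100 bases, the read length of the study, was shared exactly between the Saa1 and Saa2 transcripts (0 of 510 windows), but reads with mismatches could still be split between them, so their separate levels are uncertain.

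The promoters of the cluster are shown because these 3 genes moved together. Each runs 250 bases before to 50 bases after the RefSeq start, in the direction of transcription. Capitals mark the letters TTGCNNAA, a C/EBP motif, searched on both strands. These letters occurred in 10.8% of 32851 RefSeq promoters of the same length, and in 5 of the 10 genes here. A match is a description of the letters and not a shown binding site.
Saa1 promoter (chr7:46742931-46743230, minus strand): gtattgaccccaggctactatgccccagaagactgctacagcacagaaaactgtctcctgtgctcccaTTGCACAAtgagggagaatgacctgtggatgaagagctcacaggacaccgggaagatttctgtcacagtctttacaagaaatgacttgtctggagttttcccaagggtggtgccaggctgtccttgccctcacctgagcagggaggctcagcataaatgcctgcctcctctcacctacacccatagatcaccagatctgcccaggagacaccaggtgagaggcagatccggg
Saa2 promoter (chr7:46751583-46751882, plus strand): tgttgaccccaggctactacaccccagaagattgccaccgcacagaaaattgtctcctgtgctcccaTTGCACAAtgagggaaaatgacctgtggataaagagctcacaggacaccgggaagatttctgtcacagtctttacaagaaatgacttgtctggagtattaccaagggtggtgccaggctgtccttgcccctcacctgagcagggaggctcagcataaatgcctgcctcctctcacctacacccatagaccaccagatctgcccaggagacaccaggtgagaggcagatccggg
Saa3 promoter (chr7:46715627-46715926, minus strand): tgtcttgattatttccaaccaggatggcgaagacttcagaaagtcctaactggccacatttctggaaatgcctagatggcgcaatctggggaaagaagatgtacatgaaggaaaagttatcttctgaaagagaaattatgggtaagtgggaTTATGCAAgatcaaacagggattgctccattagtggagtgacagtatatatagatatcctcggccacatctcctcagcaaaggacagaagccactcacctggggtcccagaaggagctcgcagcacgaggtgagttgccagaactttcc

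The match lay at -182 to -175 in Saa1, at -183 to -176 in Saa2, and at -99 to -92 in Saa3, where the letters read on the opposite strand. The start used lies 201 bases inside the annotated span in Saa1 and 3939 bases inside it in Saa3, so these windows are not at the outer end of the annotation. None of the 3 promoters held the NF-kB letters (GGGA and TTCC with any 2 bases between them) or the STAT letters TTCNNNGAA in this window. Sites with other letters were not searched, so a missing match does not show that a binding site is absent.

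Saa1 had 152 and 125 CPM in PG organoids, against 0.123 and 0.237 CPM in SLG organoids and 0.196 and 0.379 CPM in SMG organoids in DAM. It was therefore high in both PG libraries and near the floor of 3 counts elsewhere among organoids in DAM, where SLG and SMG overlapped. The log2 fold change was 9.57 (SE 0.301) for PG against SLG organoids, a 762-fold difference, and 8.92 (SE 0.286) for PG against SMG organoids. In GEM, SMG organoids had 1.28 and 2.0 CPM, above both SMG libraries in DAM. For DAM against GEM the log2 fold change of Saa1 was -2.48 (SE 0.372), and it ranged between -3.03 and -2.08 when 1 library was left out. The gene had no count in any of the 6 tissue libraries, which allows up to 3 counts a library, or 0.0737 to 0.205 CPM. Against that floor Saa1 was at least 897-fold higher in PG organoids than in PG tissue, at least 1.88-fold higher in SLG organoids than in SLG tissue, and at least 1.40-fold higher in SMG organoids in DAM than in SMG tissue.

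Saa2 had 59.6 and 49.0 CPM in PG organoids (7446 counts in all). SLG organoids had 0 and 0.0976 CPM (7 counts), SMG organoids in DAM 0.0559 and 0.0562 CPM (8 counts), and SMG organoids in GEM 0.476 and 0.727 CPM (81 counts). The gene thus followed Saa1, with PG organoids above the other organoids. A count of 0 in 1 SLG organoid library took Saa2 out of the model of all genes. As a ratio of CPM with a 95% interval for counting error only, Saa2 was 1190-fold (577 to 2960) higher in PG than in SLG organoids and 971-fold (492 to 2249) higher in PG than in SMG organoids. Without SLG organoid library 1, which had no count, the first ratio was 557 (270.2 to 1386). For DAM against GEM the ratio was 0.0922 (0.0385 to 0.190). PG tissue had 0.146 and 0 CPM, that is 3 counts, and SLG and SMG tissue had none. The ratio of PG organoids to PG tissue was 725 (248 to 3515), or 372 (127 to 1804) without PG tissue library 2 and at least 352 without PG tissue library 1, and no fold is given for SLG and SMG, where organoids were at or under the floor of the tissue.

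Saa3, the member of the family that macrophages and epithelia make outside the liver in mice, had 66.1 and 68.1 CPM in PG organoids. SLG organoids had 1.02 and 0.990 CPM, and SMG organoids had 0.517 and 0.674 CPM in DAM and 1.92 and 2.67 CPM in GEM. The order was PG, then GEM-cultured SMG, then SLG, then SMG in DAM, and no 2 neighbours in it overlapped. Saa3 was 65.6-fold higher in PG than in SLG organoids (log2 fold change 6.04, SE 0.170) and 114-fold higher in PG than in SMG organoids (6.83, SE 0.182). DAM against GEM gave -1.91 (SE 0.199). Tissue libraries held 0 and 0.308 CPM in PG, 0.0637 and 0 CPM in SLG, and 0.116 and 0.274 CPM in SMG. PG organoids exceeded PG tissue 447-fold (205 to 1218 by counting error), SLG organoids exceeded SLG tissue 36.2-fold (9.86 to 302), and SMG organoids exceeded SMG tissue 3.16-fold (1.39 to 8.84). These ratios rest on few tissue counts. They were 218 (99.9 to 593) without PG tissue library 1, 15.8 (4.29 to 131) without SLG tissue library 2, and 5.12 (1.38 to 43.0) without SMG tissue library 2. Without SMG tissue library 1 the SMG ratio was 2.17 (0.818 to 8.16), an interval that includes 1.

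Lcn2 encodes lipocalin 2, which binds bacterial siderophores and so keeps iron from bacteria. It lies at chr2:32384637-32387739 on the minus strand. Its promoter stretch around the C/EBP letters (capitals, -216 to -209 from the start) is shown because Lcn2 had the highest TPM of the set in PG organoids.
Lcn2 promoter stretch (chr2:32387928-32387975, minus strand): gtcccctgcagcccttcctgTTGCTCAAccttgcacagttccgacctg

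Lcn2 had 5462 and 5121 CPM in PG organoids, 1348 and 1250 CPM in SLG organoids, 2391 and 2499 CPM in SMG organoids in DAM, and 4119 and 4521 CPM in SMG organoids in GEM. The 4 groups were ordered PG, SMG in GEM, SMG in DAM and SLG without overlap. The log2 fold change was 2.0 (SE 0.0962) for PG against SLG, 1.13 (SE 0.0939) for PG against SMG and -0.87 (SE 0.0934) for SLG against SMG organoids. DAM against GEM gave -0.78 (SE 0.0933), under the fold of 2 that the call required. Tissue had 8.92 and 8.01 CPM in PG, 4.97 and 3.98 CPM in SLG, and 5.63 and 6.50 CPM in SMG. Organoids therefore exceeded tissue 645-fold in PG (log2 fold change 9.33, SE 0.134), 304-fold in SLG (8.25, SE 0.129) and 402-fold in SMG (8.65, SE 0.134). Between SLG and SMG tissue the value was -0.38 (SE 0.224), which turned to 0.59 under whole-library totals.

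Ltf encodes lactoferrin, an iron-binding glycoprotein of milk, tears and saliva, and lies at chr9:111019292-111042766 on the plus strand. The stretch below is given as the only match found in its promoter, with the C/EBP letters in capitals at -75 to -68, read on the opposite strand.
Ltf promoter stretch (chr9:111019197-111019244, plus strand): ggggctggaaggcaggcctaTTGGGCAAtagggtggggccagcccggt

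Ltf was high in every organoid library. It had 4204 and 3080 CPM in PG organoids, 5252 and 4653 CPM in SLG organoids, 3439 and 2858 CPM in SMG organoids in DAM, and 4644 and 3881 CPM in SMG organoids in GEM. PG and SMG organoids in DAM overlapped, and none of the 4 comparisons among organoids reached a fold of 2. The log2 fold change was -0.47 (SE 0.148) for PG against SLG, 0.23 (SE 0.148) for PG against SMG, 0.70 (SE 0.148) for SLG against SMG organoids, and -0.39 (SE 0.148) for DAM against GEM. The value for PG against SMG organoids was -0.00 without PG organoid library 1. In tissue Ltf was at 1.17 and 1.44 CPM in PG, at 14.6 and 18.5 CPM in SLG and at 0 in both SMG libraries. PG organoids were thus 2810-fold (2143 to 3763 by counting error) above PG tissue, SLG organoids 296-fold (280 to 314) above SLG tissue, and SMG organoids in DAM at least 15330-fold above SMG tissue.

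Reg3g encodes a C-type lectin that binds peptidoglycan and kills Gram-positive bacteria, best known from the mouse intestine. It lies at chr6:78466269-78468874 on the minus strand, and its promoter held none of the 3 motifs. PG organoids had 1.04 and 0.880 CPM, SLG organoids 47.6 and 54.9 CPM, SMG organoids in DAM 7.47 and 9.18 CPM, and SMG organoids in GEM 37.5 and 41.9 CPM. PG organoids, the highest in the serum amyloid genes, were thus the lowest here, and no groups overlapped. Reg3g was 54.0-fold lower in PG than in SLG organoids (log2 fold change -5.76, SE 0.160), and the log2 fold change was -3.09 (SE 0.162) for PG against SMG and 2.67 (SE 0.127) for SLG against SMG organoids. DAM against GEM gave -2.21 (SE 0.125). In tissue only 3 counts were seen, all in SLG tissue library 1. PG organoids were at least 6.24-fold above PG tissue, SLG organoids exceeded SLG tissue 1226-fold (419 to 5945) or, without SLG tissue library 2, 534-fold (182 to 2588), and SMG organoids in DAM were at least 40.5-fold above SMG tissue.

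Bpifb1 encodes a BPI-fold protein secreted by airway and other mucosal epithelia, related to proteins that bind bacterial lipopolysaccharide. It spans chr2:154190818-154220343 on the plus strand and has a pair of listed starts. The promoter of Bpifb1 at start 1 and that of Pglyrp1 were the only ones of the set with the NF-kB letters, which occurred in 1.47% of all promoters. Both stretches are shown with these letters in capitals, at -78 to -69 in Bpifb1 and at -93 to -84 in Pglyrp1, where they read on the opposite strand.
Bpifb1 promoter stretch (chr2:154190720-154190769, plus strand): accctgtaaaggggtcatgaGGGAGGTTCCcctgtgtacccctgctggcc
Pglyrp1 promoter stretch (chr7:18884577-18884626, plus strand): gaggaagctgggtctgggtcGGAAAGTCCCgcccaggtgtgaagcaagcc

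Start 2 of Bpifb1 and the first bases of Pigr held the STAT letters TTCNNNGAA, which occurred in 8.3% of all promoters. They lay at -146 to -138 in Bpifb1 and at 39 to 47 in Pigr.

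**Figure D2:**
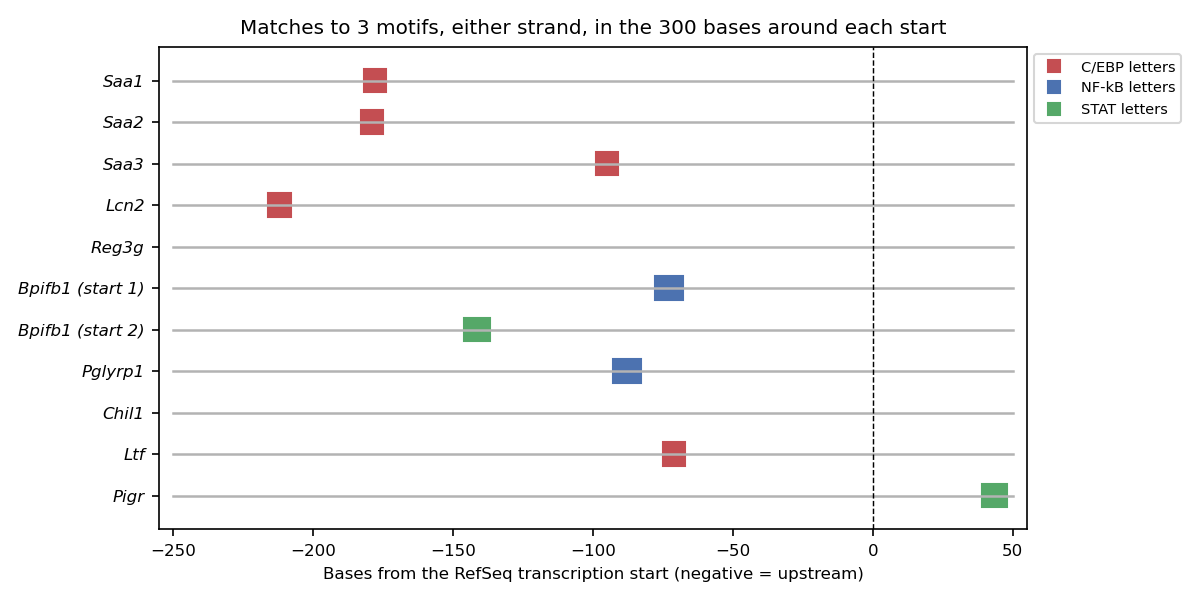
Positions of the C/EBP, NF-kB and STAT letters in the window of 250 bases before to 50 bases after the RefSeq start of each gene (x axis, bases from the start). C/EBP letters stand in 5 genes, NF-kB letters in 2 and STAT letters in 2, while the lines of Reg3g and Chil1 are empty.

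Bpifb1 had 0.300 and 0.373 CPM in PG organoids, 47.9 and 47.1 CPM in SLG organoids, 7.21 and 8.04 CPM in SMG organoids in DAM, and 20.1 and 18.6 CPM in SMG organoids in GEM. Among organoids its order was that of Reg3g, with SLG highest, PG lowest and no overlap. The log2 fold change was -7.16 (SE 0.140) for PG against SLG organoids, a 143-fold lower level, and -4.48 (SE 0.144) for PG against SMG. It was 2.68 (SE 0.0979) for SLG against SMG organoids and -1.30 (SE 0.0959) for DAM against GEM. Tissue showed another order. PG tissue had 25.9 and 23.4 CPM (987 counts in all), SLG tissue 1.08 and 0 CPM (34 counts and none), and SMG tissue no count. PG was the gland whose tissue exceeded its organoids, with a ratio of organoids to tissue of 0.0136 (0.00990 to 0.0183). SLG organoids exceeded SLG tissue 101-fold (72 to 146), and SMG organoids were at least 37.1-fold above SMG tissue. All counts of SLG tissue were in library 1, where Bpifb1 stood at 4.4% of the PG tissue mean beside the 5.45% and 5.73% of the parotid products Chia1 and Bpifa2. The part of parotid RNA in that library was not tested. Without it, SLG organoids were at least 645-fold above the floor of SLG tissue library 2, and PG tissue was at least 334-fold above it, in place of the ratio of 52.3 (37.2 to 76.0) over both libraries. Without library 2 these ratios were 43.9 (31.4 to 63.4) and 22.8 (16.2 to 33.1).

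Pglyrp1 encodes a short peptidoglycan recognition protein that binds bacterial cell walls and is stored in neutrophil granules and secreted by epithelia. It lies at chr7:18884690-18890438 on the plus strand. Pglyrp1 had 36.1 and 29.3 CPM in PG organoids, 101 and 109 CPM in SLG organoids, 52.8 and 44.8 CPM in SMG organoids in DAM, and 115 and 125 CPM in SMG organoids in GEM. PG was lowest and the groups did not overlap. The log2 fold change was -1.71 (SE 0.111) for PG against SLG, -0.56 (SE 0.110) for PG against SMG, 1.15 (SE 0.109) for SLG against SMG organoids, and -1.26 (SE 0.109) for DAM against GEM. In tissue the range between glands was wider: 34.2 and 37.6 CPM in PG, 1063 and 1207 CPM in SLG, and 5.58 and 4.38 CPM in SMG. SLG tissue thus held 236-fold more than SMG tissue (log2 fold change 7.88, SE 0.133), and PG tissue 32.9-fold less than SLG tissue (-5.04, SE 0.110). Against tissue the direction was not the same in every gland. SLG organoids were 10.4-fold below SLG tissue (log2 fold change -3.38, SE 0.112), whereas SMG organoids in DAM were 9.69-fold above SMG tissue (3.28, SE 0.148). PG organoids and PG tissue overlapped, with a value of -0.09 (SE 0.112) that turned to 1.91 under whole-library totals and to 0.02 without PG organoid library 3.

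Chil1 encodes a chitinase-like lectin without enzyme activity that is secreted by macrophages, neutrophils and inflamed epithelia. It lies at chr1:134182156-134190031 on the plus strand. Chil1 had 3901 and 4036 CPM in PG organoids, 205 and 183 CPM in SLG organoids, 506 and 596 CPM in SMG organoids in DAM, and 1974 and 2105 CPM in SMG organoids in GEM. Its order was that of Lcn2, and no groups overlapped. Chil1 was 20.2-fold higher in PG than in SLG organoids (log2 fold change 4.33, SE 0.117), and the log2 fold change was 2.87 (SE 0.110) for PG against SMG and -1.46 (SE 0.105) for SLG against SMG organoids. DAM against GEM gave -1.85 (SE 0.106), a larger change than that of Lcn2, although the difference between the 2 genes was not tested. Tissue held 0.926 and 0.925 CPM in PG, 0.446 and 0.418 CPM in SLG, and 2.27 and 1.78 CPM in SMG. Organoids exceeded tissue 4420-fold in PG (log2 fold change 12.11, SE 0.157), 465-fold in SLG (8.86, SE 0.153) and 269-fold in SMG (8.07, SE 0.140). The tissue values rest on 31 to 65 counts a group. The call of Chil1 as lower in PG than in SMG tissue (-1.13, SE 0.401) did not reach a fold of 2 without SMG tissue library 1 (-0.94). It was also lost with a filter on low counts in place of the filter on 0 counts (-1.135, SE 0.481).

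Pigr, at chr1:130826684-130852249 on the plus strand, encodes the polymeric immunoglobulin receptor and stood at 210 CPM or more in all 14 libraries. It had 1515 and 1379 CPM in PG organoids, 1388 and 1278 CPM in SLG organoids, 845 and 875 CPM in SMG organoids in DAM, and 997 and 1183 CPM in SMG organoids in GEM. PG and SLG organoids overlapped. The log2 fold change was 0.09 (SE 0.103) for PG against SLG, 0.77 (SE 0.103) for PG against SMG, 0.68 (SE 0.103) for SLG against SMG organoids, and -0.30 (SE 0.103) for DAM against GEM. Tissue had 474 and 460.0 CPM in PG, 1723 and 1781 CPM in SLG, and 210 and 238 CPM in SMG. SLG tissue was thus the highest of the 3 tissues, 8.15-fold above SMG tissue (log2 fold change 3.03, SE 0.0901). PG organoids exceeded PG tissue 3.20-fold (log2 fold change 1.68, SE 0.0856) and SMG organoids exceeded SMG tissue 3.82-fold (1.93, SE 0.0868). SLG organoids were slightly below SLG tissue (-0.34, SE 0.0831), a value that turned to 0.77 under whole-library totals. Transcripts of the cargo were scarce in the same organoids. Igha, the constant region of IgA, had 0 counts in the 8 organoid libraries and 18 and 23 counts in PG, 72 and 118 in SLG, and 5 and 13 in SMG tissue. Jchain, the joining chain of dimeric IgA, had at most 10 counts in an organoid library. It was not particular to organoids in being low, since a 0 count in tissue left it out of the tissue fit too.

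**Figure D3:**
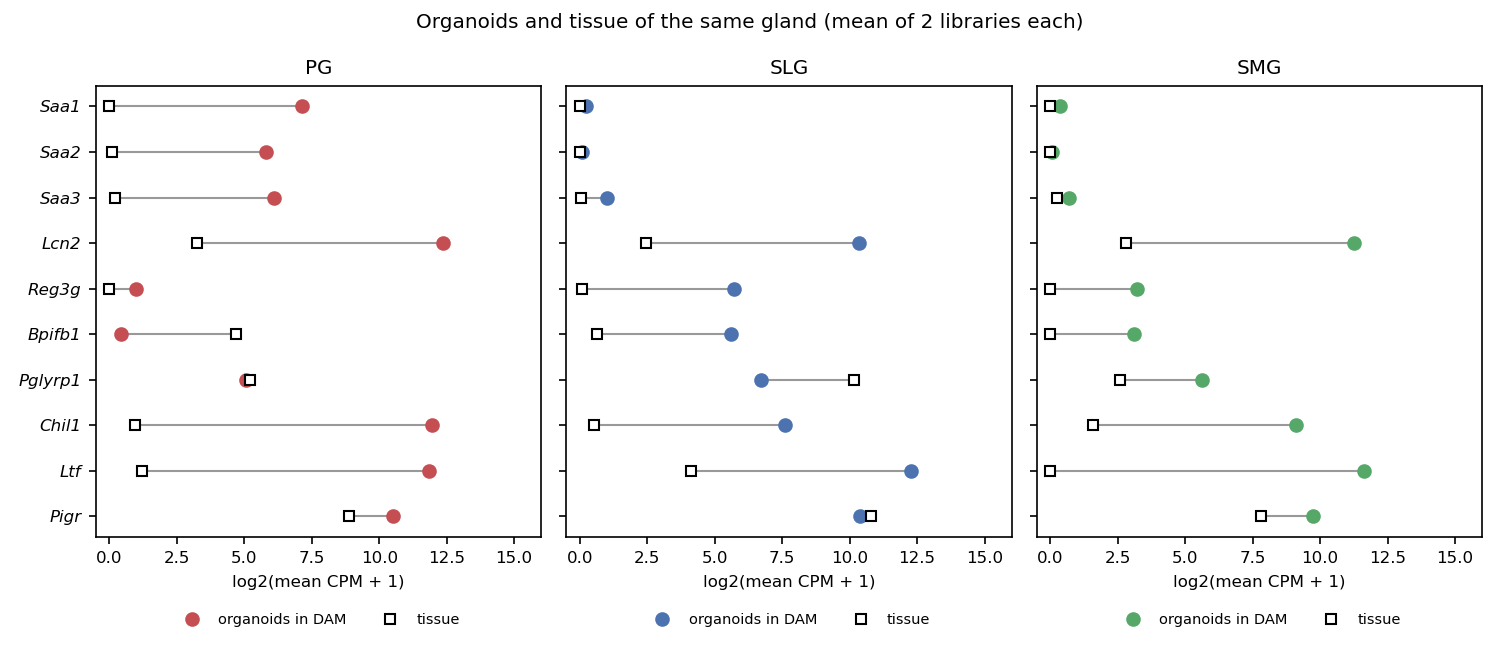
Mean level of each gene on the scale log2(CPM + 1) in organoids in DAM (filled circles) and in tissue (open squares) of PG, SLG and SMG, 2 libraries each, joined by a line. Lcn2, Chil1 and Ltf lie far to the right of their tissue in all 3 glands, while Bpifb1 in PG and Pglyrp1 in SLG lie to the left of theirs.

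The comparison of media set SMG organoids in DAM, without Y-27632 and with DAPT, against SMG organoids in GEM. For stained SMG organoids, a figure legend of the study gives 9 days in GEM, or 3 further days in DAM. The labels give 3 days for both media. Time in culture may therefore differ along with the compounds, and its part was not tested. Every one of the 10 genes was lower in both DAM libraries than in both GEM libraries, as were 34.4% of all 16260 genes tested. Of the 9 that entered the model, 0 were called higher and 6 were called lower, where a call is an adjusted p under 0.05 together with a fold over 2. Among all 16260 genes tested, 1.81% were called higher and 1.15% were called lower. The 6 genes were Saa1, Saa3, Reg3g, Bpifb1, Pglyrp1 and Chil1. Lcn2, Ltf and Pigr were not called, and Saa2 was not tested. Genes of the acinar list, which includes Klk1, moved with the medium too. Of 7 tested, 4 were called lower and 1 higher, with a median of -1.13. The sum of the list was 902 and 861 CPM in DAM against 1253 and 1265 CPM in GEM. Their part in the difference was not tested. The median of the 9 log2 fold changes was -1.30, against 0.01 over all genes.

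Between PG and SLG organoids, 4 of the 9 genes were called higher (Saa1, Saa3, Lcn2 and Chil1) and 3 lower (Reg3g, Bpifb1 and Pglyrp1), beside 5.83% and 3.93% of all genes. The median was 0.09, with values of both signs, and 9 of the 10 genes did not overlap between the groups, beside 69.3% of all genes tested. Between PG and SMG organoids, 4 were called higher and 2 lower, the same genes apart from Pglyrp1, beside 9.16% and 5.55% of all genes, with a median of 0.77. Between SLG and SMG organoids, 3 were called higher (Reg3g, Bpifb1 and Pglyrp1) and 1 lower (Chil1), beside 8.91% and 6.28% of all genes, with a median of 0.70. These 3 comparisons share libraries and are not independent of each other. Summed duct markers differed between the glands. Basal duct markers summed to 8563 and 9203 CPM in PG, 4329 and 4332 CPM in SLG, and 8905 and 8063 CPM in SMG organoids in DAM, and 4 of 6 were called higher in PG than in SLG. Luminal duct markers summed to 7114 and 6431 CPM in PG, 10500 and 10260 CPM in SLG, and 7555 and 7048 CPM in SMG organoids in DAM. Of the 8 luminal genes tested, 0 were called higher and 1 lower for PG against SLG organoids. The calls were 2 and 1 for PG against SMG, and 2 and 0 for SLG against SMG. Among 7 tested genes of the acinar list, 0 were called higher and 3 lower for PG against SLG organoids. Their calls were 3 and 2 for PG against SMG, and 5 and 1 for SLG against SMG. SLG organoids, the highest in Reg3g and Bpifb1, were also those with the higher Lyz2 counts given above. Only 2 genes of that macrophage and leukocyte list were tested among organoids, and they went the other way. Both were called higher in PG than in SLG organoids (median 1.87). For SLG against SMG organoids 0 were called higher and 1 lower (median -1.60). The part of these markers in the differences between glands was not tested.

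**Figure D4:**
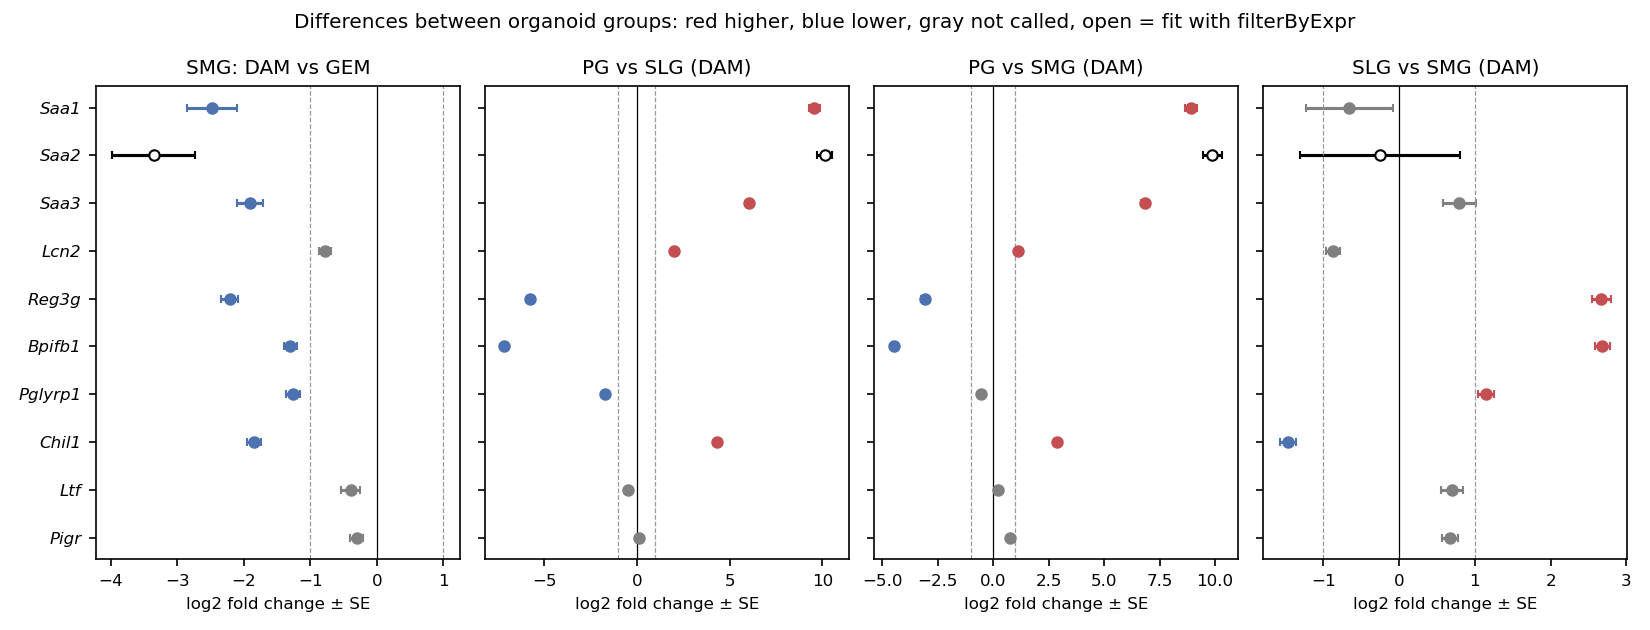
Log2 fold change ± SE (x axis) of each gene for DAM against GEM in SMG organoids and for the 3 comparisons of glands in DAM, with dashed lines at a fold of 2. Red points were called higher, blue points lower and gray points not called, and open points come from a fit that kept genes with a 0 count. All points lie left of 0 for DAM against GEM, and the points fall on both sides in the comparisons of PG organoids.

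Of the 10 genes, 4 had a count above 0 in all 12 libraries of the organoid against tissue model: Lcn2, Pglyrp1, Chil1 and Pigr. In PG, 3 of these 4 were called higher in organoids and 0 lower, beside 25.1% and 22.1% of all 14459 genes. In SLG, 2 were called higher and 1 (Pglyrp1) lower, beside 20.6% and 18.1%. In SMG, 4 were called higher and 0 lower, beside 22.9% and 23.2%. The medians were 5.51, 3.96 and 5.67. The 6 genes left out for a 0 count were those at or near 0 in tissue, whose counts and bounds stand above. With a filter on low counts that kept them, the calls were 8 higher and 1 lower in PG, 7 and 1 in SLG, and 9 and 0 in SMG. Genes kept by that filter only because organoids were high had to differ, so nothing is read from these counts.

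Between tissues, the same 4 genes were tested. PG against SLG tissue gave 0 higher and 2 lower (Pglyrp1 and Pigr), beside 15.7% and 12.6% of all 16293 genes. PG against SMG tissue gave 2 higher (Pglyrp1 and Pigr) and 1 lower (Chil1), beside 6.71% and 6.78%, and this count of 3 was 1 without SMG tissue library 1, since Pigr moved to 0.97 there on the log2 scale and Chil1 to -0.94. Leaving out any other library of these groups also took that count below 3. SLG against SMG tissue gave 2 higher (Pglyrp1 and Pigr) and 1 lower (Chil1), beside 8.38% and 11.9%. Outside the model, Ltf was at least 80.5-fold above the SMG tissue floor in SLG tissue and at least 6.35-fold in PG tissue, and Bpifb1 was at least 120-fold above it in PG tissue. The ratio of PG to SLG tissue was 0.0775 (0.0575 to 0.102) for Ltf.

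Other acute-phase plasma proteins were followed through a list of 27 genes, of which 16 were tested among organoids. This list and those below were chosen with earlier results of these data known. Their calls and adjusted p-values are therefore a description and not independent support. In PG against SLG organoids 10 were called higher and 1 lower by edgeR with Benjamini-Hochberg adjustment. Of all genes, 5.83% were called higher and 3.93% lower there. These shares were 9.16% and 5.55% for PG against SMG, 8.91% and 6.28% for SLG against SMG, and 1.81% and 1.15% for DAM against GEM. They apply to the other lists below too. The complement gene C4b was higher by 3.23 on the log2 scale (SE 0.170, adjusted p = 1.48e-07), C3 by 2.17 (SE 0.112, adjusted p = 2.27e-07) and Lbp, the lipopolysaccharide-binding protein, by 1.5 (SE 0.0757, adjusted p = 1.1e-07). In PG against SMG organoids 8 were called higher and 0 lower by edgeR (also 0 lower by DESeq2 and at an unadjusted p under 0.05), led by C4b (6.73, SE 0.222, adjusted p = 3.5e-09). SLG against SMG organoids gave 6 higher and 2 lower, with C4b (3.5, SE 0.226, adjusted p = 3.57e-07), the copper carrier Cp (1.2, SE 0.107, adjusted p = 4.39e-06) and Lrg1 (2.60, SE 0.182, adjusted p = 5.5e-06) among the higher. DAM against GEM gave 2 in each direction, Orm3 and Serpina1e higher and Lrg1 and Cfb lower. Of 11 alternatives, the call was lost in 8 for Serpina1e (DESeq2 among them), in 4 for Cfb, and in 2 each for Orm3 and Lrg1. With a replicate block Serpina1e, Cfb and Lrg1 lost theirs, with only the groups compared Serpina1e, Cfb and Orm3, and without SMG DAM library 2 the same 3. Without SMG DAM library 1 Serpina1e and Cfb lost theirs, and without SMG GEM library 3 Serpina1e and Lrg1. The medians of the list were 1.35, 1.63, 0.58 and 0.02 in these comparisons, against values between -0.01 and 0.01 over all genes.

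Against tissue, 9 of 11 tested acute-phase genes were called higher in PG organoids (edgeR and DESeq2 called 0 lower, and 0 were lower at an unadjusted p under 0.05), 8 and 1 in SLG organoids, and 6 and 4 in SMG organoids in DAM. Of all genes, 25.1%, 20.6% and 22.9% were called higher in PG, SLG and SMG, and 22.1%, 18.1% and 23.2% lower. Cd14, the co-receptor for lipopolysaccharide, was higher in all 3, by 5.53 (SE 0.0987, adjusted p = 7.5e-17), 4.64 (SE 0.0871, adjusted p = 2.04e-16) and 4.19 (SE 0.0917, adjusted p = 3.81e-16). C4b was higher in PG organoids (1.11, SE 0.155, adjusted p = 5.3e-06, or 0.95 and not called without PG tissue library 1) and lower in SMG organoids (-5.48, SE 0.229, adjusted p = 9.6e-13) than in their tissue.

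Of 32 other secreted antimicrobial genes, 9 were tested among organoids. Defb1, a beta-defensin, was higher in PG than in SLG organoids (2.69, SE 0.115, adjusted p = 3.48e-08) and than in SMG organoids (2.64, SE 0.115, adjusted p = 2.28e-08). The chitinase Chit1 was higher by 6.08 (SE 0.286, adjusted p = 7.38e-08) and the peptidoglycan recognition protein Pglyrp4 by 3.72 (SE 0.167, adjusted p = 1.48e-07) in PG than in SLG organoids, where Pglyrp1 had the opposite sign. In all, 4 were called higher and 2 lower for PG against SLG, 2 and 1 for PG against SMG, and 1 and 3 for SLG against SMG organoids. For DAM against GEM the lactoperoxidase gene Lpo was called lower (-2.05, SE 0.170, adjusted p = 4e-05). edgeR and DESeq2 called 0 higher, with 2 at an unadjusted p under 0.05. The 1 gene lower in PG than in SMG organoids, the intelectin Itln1 (-1.24, SE 0.458, adjusted p = 0.0468), lost its call when any 1 of the 4 libraries was left out. Against tissue 4 list genes were tested, 2 called higher and 1 lower in PG organoids, and 1 each way in SLG and SMG organoids. Of all genes, 25.1%, 20.6% and 22.9% were called higher, and 22.1%, 18.1% and 23.2% lower. The list summed to 122 to 293.5 CPM in organoids and 2341 to 1510000 CPM in tissue. Such sums are possible because the effective size leaves out genes with a 0 count. In SLG tissue Bpifa2 held 78710 and 15090 CPM of list sums of 85870 and 15460 CPM.

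Regulators of the acute phase were followed through 14 genes of the NF-kB, STAT3 and C/EBP pathways, all of them tested. PG organoids had 3 higher than SLG organoids by edgeR: Zc3h12a (1.61, SE 0.0788, adjusted p = 8.98e-08), Nfkbiz (1.22, SE 0.0781, adjusted p = 6.21e-07) and Socs3 (1.10, SE 0.0911, adjusted p = 4.34e-06). Zc3h12a and Socs3 are feedback inhibitors, whereas Nfkbiz, the atypical inhibitor IkB-zeta, is a cofactor needed for Lcn2 expression in mice. Cebpd was higher in PG than in SMG organoids (1.15, SE 0.227, adjusted p = 0.0083), a call lost without SMG DAM library 1 and with a replicate block (0.97), and Cebpb was lower in SLG than in SMG organoids (-1.35, SE 0.230, adjusted p = 0.00409). For DAM against GEM 0 of 14 were called in either direction by edgeR or DESeq2, with 0 higher and 2 lower at an unadjusted p under 0.05. Against tissue, 12 were higher in PG organoids, 8 in SLG organoids and 10 in SMG organoids in DAM, and 0 were lower by edgeR, by DESeq2 or at an unadjusted p under 0.05. The shares of all genes called higher there were 25.1%, 20.6% and 22.9%, and the shares called lower 22.1%, 18.1% and 23.2%. Socs3 was higher in all 3, by 4.98 (SE 0.181, adjusted p = 1.71e-13), 5.46 (SE 0.198, adjusted p = 2.05e-13) and 4.11 (SE 0.185, adjusted p = 2.53e-12).

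Upstream, 28 cytokine and receptor genes were listed and 22 tested. Il6 and Il17a had no count in any of the 14 libraries. Il1b averaged 0.0143 CPM in PG organoids and 0 CPM in the other organoid groups, while Tnf averaged 21.9 CPM in PG, 13.5 in SLG, 11.5 in SMG organoids in DAM and 13.4 in SMG organoids in GEM. Il1a was 61.6-fold higher in PG than in SLG organoids (log2 fold change 5.95, SE 0.198, adjusted p = 7.72e-08) and lower in SLG than in SMG organoids (-5.10, SE 0.196, adjusted p = 9.36e-08). Osmr, the oncostatin M receptor, was higher in PG than in SLG organoids (1.68, SE 0.0911, adjusted p = 1.86e-07) and than in SMG organoids (2.07, SE 0.0927, adjusted p = 2.85e-08). In all, 6 were called higher and 0 lower for PG against SLG, 7 and 0 for PG against SMG, and 4 and 2 for SLG against SMG organoids by edgeR. At an unadjusted p under 0.05, 6 were lower for PG against SLG and 2 for PG against SMG, and DESeq2 called 0 of them. For DAM against GEM only Tlr2 was called (1.2, SE 0.129, adjusted p = 0.000211).

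Of 13 genes of IgA and plasma cells, 4 were tested among organoids and 2 against tissue. Both of the 2, the secretory-pathway genes Derl3 and Xbp1, were called lower in organoids of every gland. Derl3 had a log2 fold change of -7.74 (SE 0.156, adjusted p = 3.01e-16) in PG, -6.14 (SE 0.158, adjusted p = 4.41e-15) in SLG and -10.14 (SE 0.184, adjusted p = 8.07e-17) in SMG. Xbp1 had -2.22, -2.64 and -2.82 in PG, SLG and SMG, and under whole-library totals its values of -0.22 in PG and -0.75 in SMG were not called. Acinar cells also use both genes, and of the 7 genes of the acinar list tested 7, 7 and 5 were called lower in PG, SLG and SMG organoids. Their part in these values was not tested.

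**Figure D5:**
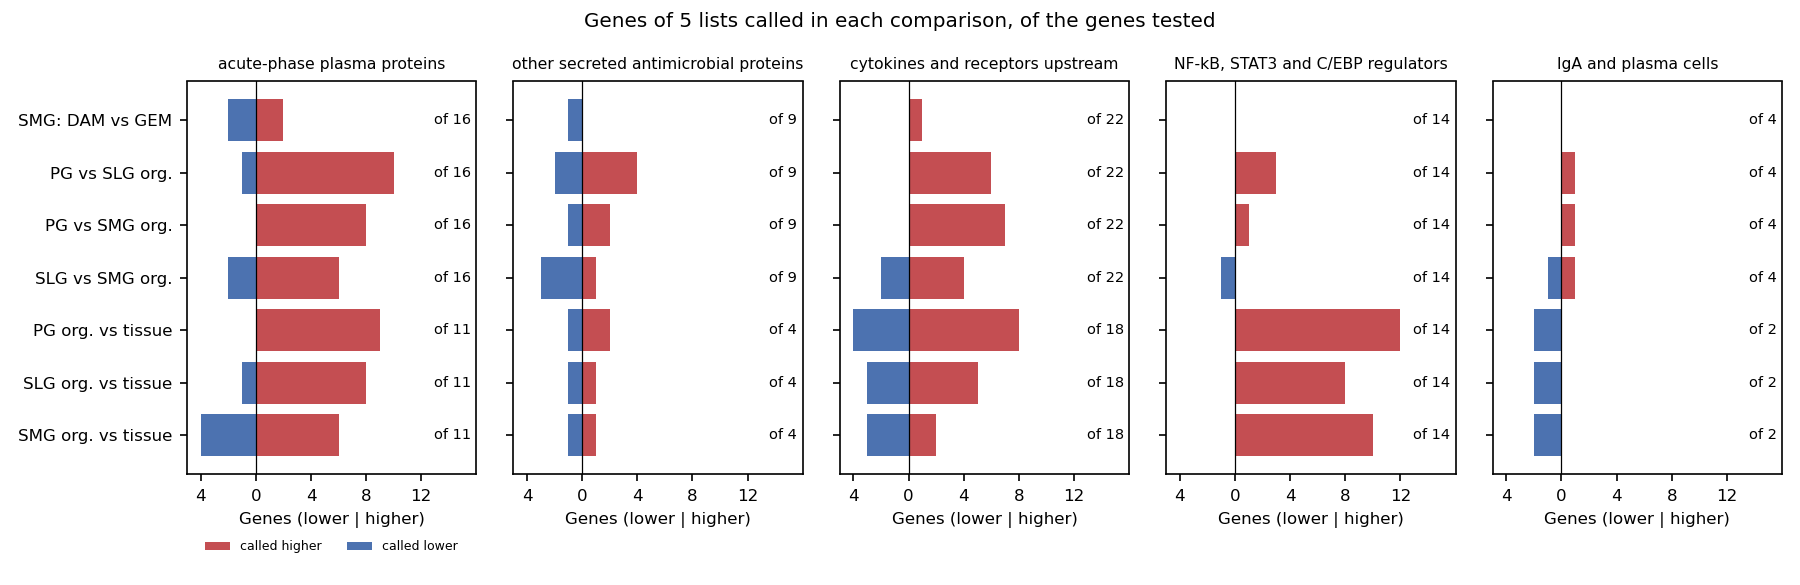
Number of genes called higher (red, to the right) or lower (blue, to the left) in 5 lists for 7 comparisons, with the number of genes tested at the right of each row. The acute-phase list has 10 higher of 16 tested for PG against SLG organoids, and the regulator list has 12 higher of 14 tested for PG organoids against PG tissue.

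Likeness of pattern was measured by Pearson's r of log2(CPM + 1) over the 8 organoid libraries, against 13172 genes. Libraries of 4 groups are the only points, so high values are common, and they are given without a test. The gene most like Saa1 and Saa2 was Islr2 (r = 0.998 and 0.999), and the gene most like Saa3 was Gm40514 (r = 0.998), with Saa1 next (0.997). Calml3, a calmodulin-like gene of stratified epithelia, was most like Lcn2 (r = 0.995), and Csn3, the kappa-casein gene, was most like Chil1 (0.993), while Lcn2 and Chil1 had 0.992 with each other. Whrn was most like Bpifb1 (0.996), Rap1gap2 most like Reg3g (0.992), and Reg3g and Bpifb1 had 0.980 with each other. Ceacam2 and Ceacam1, neighbouring adhesion genes, were most like Pglyrp1 (0.993 and 0.992). The lowest best values were those of Ltf (Cdk12, 0.977) and Pigr (Fzd6, 0.983), the genes that varied least among organoids. Across the set, Saa1 and Bpifb1 had r = -0.88.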

How the data were processed

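RNA was sequenced from 14 libraries of mouse salivary gland organoids and tissue. Per the labels a stranded total RNA kit was used, whereas the methods of the study name a stranded mRNA kit, and no source states whether strand was used in counting. The submitters' processing notes name HISAT2, StringTie, DESeq2 and the GRCm38 build, without versions. Deposited by the authors were read counts per gene, FPKM and TPM in 1 table for organoids and 1 for tissue. Counts were used for all comparisons. The deposited TPM values, which the authors scaled by transcript length and library, were used only to rank genes within 12 libraries. A further 16 per-library value columns were not used here: FPKM of the 14 libraries, and TPM of the 2 columns numbered 3, which match no sample title and were used for counts by their group alone.

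Counts were fitted with edgeR 4.0.16 (quasi-likelihood test, TMM, robust) in R 4.3.3. Organoid groups shared 1 fit of 8 libraries, tissues 1 of 6, and organoids in DAM with tissue 1 of 12. Genes with a 0 count in any library of a fit were left out. Calls needed both an absolute log2 fold change over 1 and a p under 0.05 after Benjamini-Hochberg adjustment across every gene in the fit. To obtain an SE, the absolute log2 fold change was divided by the root of its F value. Folds against groups at 0 use a floor of 3 counts per library. Ratios of counts carry exact 95% intervals that cover counting error only. Promoter sequences came from RefSeq on GRCm38.p6, where all 10 genes matched. The fits were tested on simulated data. Alternatives were DESeq2 1.42.0, RLE factors, whole-library totals, 2 other filters, only the groups compared, a replicate block and leaving out each library.

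All 10 members are named. From each list and comparison up to 3 called genes with the smallest adjusted p could be named, and for likeness the 3 genes with the highest r. Saa4, Orm3, Serpina1e, Cfb, Igha, Jchain, Il6, Il17a, Il1b, Tnf and Itln1 were named after their values were seen where the rule did not cover them. The members and the lists were chosen with earlier results of these data known.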

Additional observations from a re-analysis of the deposited data

Results flagged for a closer look

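Of the 10 genes, 3 differed from tissue in opposite directions between glands, with every organoid library on 1 side of every tissue library in at least a pair of glands. The same rule was met by 14.3% of the 27235 genes with a count in any of the 12 libraries, and by 21.4% of the 14459 tested genes, which hold 2 of the 3 (Pglyrp1 and Pigr) and 4 of the 10. On the log2(CPM + 1) scale, the mean of organoids in DAM minus the mean of tissue was -4.26 in PG, 5.07 in SLG and 3.11 in SMG for Bpifb1. For Pglyrp1 the values were -0.14 in PG, where libraries overlapped, -3.42 in SLG and 3.06 in SMG. For Pigr they were 1.63 in PG, -0.40 in SLG and 1.94 in SMG. Under whole-library totals the log2 ratio of Pigr in SLG turned to 0.77, so that Pigr was higher in organoids of all 3 glands and 2 of the 10 genes met the rule, beside 9.06% of the 27235 genes. The genes were chosen on these libraries, so the differences between glands were not tested. In the edgeR fit the organoid against tissue log2 fold change of Pglyrp1 differed by -6.66 (SE 0.182) for SLG minus SMG and by 3.29 (SE 0.154) for PG minus SLG. That of Pigr differed by -2.27 (SE 0.120) for SLG minus SMG and by 2.02 (SE 0.119) for PG minus SLG.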

How the results depend on the processing

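No member that was called turned its direction under any alternative run. Keeping genes with a 0 count moved the number of members called for organoids against tissue to 9 in PG, 8 in SLG and 9 in SMG, in place of 3, 3 and 4, both with filterByExpr and with no filter, since more genes were then tested. With only the groups compared, PG gave 5. In the list genes, these filters gave 5 lower for DAM against GEM (3 in the reported fit), 7 lower for PG against SLG organoids (3), 3 lower for PG against SMG organoids (1), and 19 lower in PG and SLG organoids against tissue (7 each). They gave 50 or 51 higher in PG organoids against tissue (31), 38 higher in SLG (22), 41 or 43 higher and 19 or 21 lower in SMG (19 and 10), and 9 higher for SLG against SMG tissue (5).

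Whole-library totals gave 2 list genes lower in PG organoids against tissue (7), 36 higher and 4 lower in SLG (22 and 7), and 39 higher and 4 lower in SMG (19 and 10). They gave 4 higher and 26 lower for PG against SLG tissue (11 and 9), 26 higher and 3 lower for SLG against SMG tissue (5 and 11), and 0 lower for PG against SMG organoids (1), as did DESeq2. Only the groups compared gave 1 list gene higher for DAM against GEM (3), 5 lower for PG against SLG organoids (3), and 12 lower for PG and SLG organoids against tissue (7 each). The cause was not tested.

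Replicate numbers were shared by some groups, but fewer than 3 pairs and no label tie them to an animal or culture. With a replicate block, list genes lower for DAM against GEM fell to 1 (3) and those lower for PG against SMG organoids to 0 (1). Crossing the numbers of SLG tissue, chosen after seeing the data because the correlation of deviations was -0.11, left 3 members, 22 higher and 7 lower list genes called.

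Leaving out each library gave 6 members called for DAM against GEM, 7 to 8 for PG against SLG, 6 for PG against SMG and 4 to 5 for SLG against SMG organoids. It gave 3, 3 and 4 against tissue in PG, SLG and SMG, and 2 to 3, 1 to 2 and 3 for PG against SLG, PG against SMG and SLG against SMG tissue. List genes higher for DAM against GEM ran between 1, without SMG DAM library 2, and 3. List genes lower for PG against SMG organoids were 0 in each case, and list genes higher for PG against SMG tissue were 2 to 3, in place of 6.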
